A study of Mus musculus with 24 samples.

Results

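The data described here are the hippocampal RNA levels of 9 genes for cell adhesion proteins of the synapse: the neurexins Nrxn2 and Nrxn3, the neuroligins Nlgn1, Nlgn2 and Nlgn3, and the LRRTM (leucine-rich repeat transmembrane neuronal) genes Lrrtm1, Lrrtm2, Lrrtm3 and Lrrtm4. They were chosen by name and taken as the rows of the deposited count table whose Ensembl identifiers map to these symbols, which gives 9 of 55471 genes. All 9 passed the filter on low counts in every comparison. Total hippocampal RNA of 12 female C57BL/6 mice aged 3–6 months was sequenced in 2 runs per mouse, and the runs of a mouse form 1 replicate.

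The mice fall into 4 groups of 3. CBP-ifKOs carry floxed alleles of Crebbp, the gene of the lysine acetyltransferase and coactivator CBP, together with Camk2a-creERT2, a tamoxifen-inducible Cre recombinase that is active in excitatory neurons of the forebrain. Control littermates lacked the Cre transgene, and tamoxifen was given to all 12 mice in 5 intragastric administrations on alternate days (20 mg/mL in corn oil). Mice of each genotype were kept either in a standard cage (SC) or in an enriched environment (EE), a large box with running wheels and toys. The driver spares interneurons and glia, so hippocampal RNA of a CBP-ifKO still contains normal Crebbp transcripts from those cells. The paper states that CBP-ifKOs make a truncated CBP without acetyltransferase activity, so Crebbp counts can also come from recombined cells. Bulk RNA was measured, so that fewer cells of a type and less RNA per cell cannot be told apart in any result below.

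Neurexins are adhesion receptors of the presynaptic membrane, and their extracellular parts bind a range of postsynaptic ligands across the synaptic cleft. Neuroligins and LRRTMs are such ligands: Nlgn1 is found mainly at excitatory synapses, Nlgn2 at inhibitory synapses and Nlgn3 at both, whereas LRRTMs are found at excitatory synapses and help to hold AMPA-type glutamate receptors in place. Inside the cell neurexins are linked to CASK and Mint proteins, and neuroligins to PSD-95 or gephyrin. The neurexin and neuroligin genes are known for alternative splicing, and counts per gene do not separate their isoforms.

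In the GRCm38 annotation Nrxn2 lies on chromosome 19 at positions 6418731–6544169 (plus strand) and Nrxn3 on chromosome 12 at 88722876–90334935 (plus strand), a span of 1612060 bases of which 12605 are exonic. Nlgn1 lies on chromosome 3 at 25426215–26332460 (minus strand), Nlgn2 on chromosome 11 at 69823122–69837784 (minus strand) and Nlgn3 on chromosome X at 101299168–101325963 (plus strand). Lrrtm1 lies on chromosome 6 at 77242689–77257791 (plus strand), Lrrtm4 on the same chromosome at 80018877–80810143 (plus strand) and Lrrtm3 on chromosome 10 at 63928472–64090277 (minus strand). Of the LRRTM genes, 3 lie inside alpha-catenin genes on the opposite strand: Lrrtm1 inside Ctnna2, Lrrtm2 inside Ctnna1 and Lrrtm3 inside Ctnna3. Lrrtm1 and Lrrtm3 share no exonic base with their host, and Lrrtm2 shares 95. Genes on the opposite strand overlap 25.1% of the exonic bases of Lrrtm4, 9.16% of Nlgn1, up to 4.94% of Nrxn2 and 3.48% of Nrxn3, and had 0–170 counts per library; whether the counting used strand is not given in the sources used here, and without strand such reads cannot be told apart.

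Promoters of 2 members are shown because Lrrtm1 was lower in CBP-ifKOs whereas Nlgn2, the member with the highest level per exon length, gave a genotype difference near 0. Each is the plus-sense sequence of the gene, 250 bases up to the base before the RefSeq start (GRCm38.p6), at chr6:77242227-77242476 on the plus strand for Lrrtm1 and at chr11:69837785-69838034 on the minus strand for Nlgn2. The letters searched were the cAMP response element (CRE) TGACGTCA, to which the CBP-recruiting factor CREB binds, and its short form TGACG, which is contained in it, on both strands; they would stand in capitals.
Lrrtm1: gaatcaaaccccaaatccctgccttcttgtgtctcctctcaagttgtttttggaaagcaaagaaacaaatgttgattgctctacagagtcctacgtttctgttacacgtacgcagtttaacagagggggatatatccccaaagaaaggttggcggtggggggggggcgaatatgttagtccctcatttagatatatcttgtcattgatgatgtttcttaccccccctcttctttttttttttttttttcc
Nlgn2: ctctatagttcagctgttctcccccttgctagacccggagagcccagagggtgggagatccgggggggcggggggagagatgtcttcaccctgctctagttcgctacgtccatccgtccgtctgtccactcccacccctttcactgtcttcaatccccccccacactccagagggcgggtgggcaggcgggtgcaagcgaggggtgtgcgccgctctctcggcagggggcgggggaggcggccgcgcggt
Neither form was present in these windows or in any of the 10 windows that RefSeq gives for 6 of the members (Nrxn3, Nlgn1, Nlgn2, Lrrtm1, Lrrtm3 and Lrrtm4). Among all 32851 windows of the same length, 1.55% held the full element and 17.8% the short form. The search says only that these letters were not in these windows.

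The library totals lay between 26874015 and 27971488 counts in the 6 controls and between 28582210 and 37448388 in the 6 CBP-ifKOs. All counts of the CBP-ifKO libraries were even numbers (0 of 148570 nonzero counts were odd), against 86334 odd counts of 158233 in the controls, and every comparison was therefore repeated with the CBP-ifKO counts divided by 2. Levels are given in CPM, the counts scaled to the library total times its trimmed mean of M-values (TMM) factor. Crebbp was at 70.7–81.9 CPM in control SC, 50.0–51.5 in CBP-ifKO SC, 69.6–77.1 in control EE and 44.5–48.3 in CBP-ifKO EE mice, so the genotypes did not overlap. Markers of neurons, excitatory neurons and dentate granule cells were detected in every library, as the label hippocampus requires. The control EE library of replicate 1 stood apart in its choroid plexus markers, which summed to 1242 CPM there and to 34.8–62.1 CPM in the other libraries.

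To compare levels between genes, CPM were divided by the gene length of the deposited table in kilobases, which equals the exonic length in the annotation for 8 members and is 12680 bases for Nrxn3. In control SC mice Nlgn2 was the most abundant member at 42.8 ± 2.92 CPM per kb (mean ± SD, n = 3), followed by Lrrtm1 at 35.6 ± 3.19. The neurexins came next, with Nrxn3 at 18.1 ± 2.26 and Nrxn2 at 14.6 ± 0.651 CPM per kb. Lrrtm2 followed at 12.6 ± 1.31, Nlgn3 at 8.98 ± 1.15 and Nlgn1 at 6.79 ± 0.439. Lrrtm3 and Lrrtm4 were lowest at 5.76 ± 0.335 and 5.21 ± 0.594 CPM per kb, and they were the only neighbours in this order whose ranges over the 3 control SC mice overlapped. Among the neuroligins, Nlgn1 reached 0.159 ± 0.0209 and Nlgn3 0.209 ± 0.0131 of the level of Nlgn2 per length in the same mice.

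The first 7 places of this order were the same in all 4 groups. Lrrtm4 stood above Lrrtm3 in CBP-ifKO SC, control EE and CBP-ifKO EE mice, with overlapping ranges each time, so their order was not resolved. Nrxn2 and Lrrtm2, which did not overlap in control SC mice, overlapped in the other 3 groups. In CBP-ifKO SC mice they lay at 12.5 ± 0.310 and 12.1 ± 0.389 CPM per kb. The ranges of Nlgn1 and Lrrtm4 also overlapped in CBP-ifKO SC mice, and those of Nlgn3 and Nlgn1 in control EE mice. The counts behind these levels ran in controls from 572 for Lrrtm3 to 7168 for Nlgn2 and in CBP-ifKOs, as deposited, from 626 for Lrrtm3 to 9820 for Nlgn2. The CBP-ifKO counts are all even, which the sources used here do not explain, and divided by 2 they would lie below those of the controls at both ends.

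**Figure D1:**
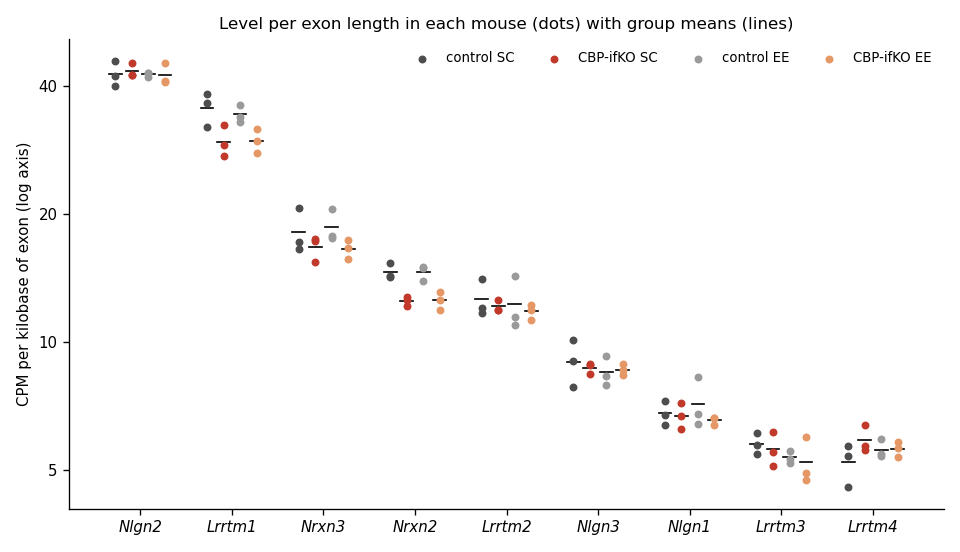
Level of each of the 9 genes in CPM per kilobase of exon (log axis) in the 12 mice (dots, coloured by group) with the mean of each group (line). Genes are ordered by their mean in control SC mice, from Nlgn2 at 42.8 to Lrrtm4 at 5.21, and the order is the same in each group for the first 7 genes.

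To ask whether loss of CBP changed these genes, CBP-ifKOs were compared with controls within each housing and over both. Nrxn2 and Lrrtm1 were lower in CBP-ifKOs over both housings, by about the same factor (0.856 and 0.848 of the control level), and the other 7 members did not pass the test; for Nrxn3 this depended on the fit. In SC mice only Nrxn2 passed in edgeR, which is 1 of 9 members beside 5.52% of the 17532 genes tested (4.02% lower), and Lrrtm1 passed as well in DESeq2 and when low counts were not filtered. In EE mice 0 of 9 passed in edgeR beside 4.57% of 17625 genes, and 1 (Nrxn2) passed in DESeq2. Below an unadjusted p of 0.05 in EE were 3 members (Nrxn2, Lrrtm1 and Nrxn3), beside 19.6% of genes. Averaged over housing 2 of 9 passed, both lower, beside 16.9% of 18251 genes (10.3% lower). These shares rest on 9 members, and nothing about the family is read from them. The tests are edgeR quasi-likelihood F tests with Benjamini-Hochberg adjustment over all genes tested. The genes past the threshold were 264 higher and 704 lower in SC mice, and 607 and 480 when libraries were scaled by their totals without TMM; in EE mice these splits were 182 and 623 against 524 and 425, and averaged over housing 1211 and 1871 against 2937 and 1275.

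Nrxn2 encodes a neurexin, a presynaptic receptor for neuroligins and LRRTMs. It was measured at 212, 196 and 197 CPM in the control SC mice and at 176, 173 and 168 CPM in the CBP-ifKO SC mice. In EE it was at 192, 206 and 207 CPM in controls and at 174, 181 and 165 CPM in CBP-ifKOs. Every CBP-ifKO lay below every control, in either housing and over both. It was the only member whose groups did not overlap in SC, where 25.9% of genes did not, and the only member without overlap between all 6 controls and all 6 CBP-ifKOs, where 8.55% of genes did not. The log2 fold change was -0.23 (SE 0.0530, adjusted p = 0.0290) in SC, -0.21 (SE 0.0626, adjusted p = 0.0833) in EE and -0.22 (SE 0.0388, adjusted p = 0.000943) averaged over housing. In SC the call held in 1 of 6 fits that left out a mouse: without control SC replicate 2 the adjusted p was 0.00909, and without one of the other 5 it lay between 0.0802 and 0.125. With library totals without TMM the SC value was -0.18 and did not pass (adjusted p = 0.0638 in edgeR). The EE value passed in DESeq2 (adjusted p = 0.0168). In edgeR it passed without the filter on low counts (adjusted p = 0.0250) and with all 12 mice in the fit (adjusted p = 0.0234). It did not pass with library totals without TMM (-0.15, adjusted p = 0.173 in edgeR) or in any of the 6 fits that left out a mouse. Averaged over housing Nrxn2 was past the threshold in all 12 fits that left out a mouse, that without control EE replicate 1 included, at log2 fold changes between -0.24 and -0.21.

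Lrrtm1 encodes a postsynaptic LRRTM protein that binds neurexins. Control SC mice had 116, 97.4 and 111 CPM and CBP-ifKO SC mice 83.0, 98.2 and 88.4 CPM. Control EE mice had 99.9, 103 and 109.9 CPM and CBP-ifKO EE mice 96.1, 90.2 and 84.4 CPM. The genotypes did not overlap in EE and overlapped in SC only through control replicate 2, at 97.4 CPM, and CBP-ifKO replicate 2, at 98.2 CPM. The log2 fold change was -0.27 (SE 0.0775, adjusted p = 0.0703) in SC, -0.20 (SE 0.0670, adjusted p = 0.125) in EE and -0.24 (SE 0.0545, adjusted p = 0.00695) averaged over housing. The SC value passed in DESeq2 (-0.26, adjusted p = 0.0189), without the filter on low counts in edgeR (-0.28, adjusted p = 0.00343) and without control SC replicate 2 in edgeR (-0.34, adjusted p = 0.00955). The EE value passed without the filter (-0.22, adjusted p = 0.0485 in edgeR). Averaged over housing the call held in all 12 fits without a mouse. Ctnna2, within which Lrrtm1 lies, was at 130–142 CPM in the 12 mice, and its averaged log2 fold change was -0.05 (adjusted p = 0.399), so the host gene did not pass the test.

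Nrxn3, the other neurexin measured, did not pass the test in either housing or over both as fitted here, and its averaged call depended on the fit. Its levels were 217, 263 and 209.6 CPM in control SC, 195, 222 and 219 CPM in CBP-ifKO SC, 225, 261 and 223 CPM in control EE and 199, 211 and 220.1 CPM in CBP-ifKO EE mice. The EE groups did not overlap and the SC groups did. In EE this held for 3 of 9 members (Nrxn2, Nrxn3 and Lrrtm1), all with the lower range in CBP-ifKOs, beside 25.3% of genes. The log2 fold change was -0.12 in SC, -0.16 in EE (unadjusted p = 0.0492, adjusted p = 0.253 in the edgeR fit) and -0.14 averaged over housing (95% confidence interval -0.27 to -0.01, adjusted p = 0.122). The averaged value passed when low counts were not filtered (log2 fold change -0.16, adjusted p = 0.00909 in edgeR) and with the replicate number as a block (-0.14, adjusted p = 0.0471 in edgeR), and with library totals without TMM it was -0.08 (adjusted p = 0.354 in edgeR). With the same totals the SC value was -0.07 (adjusted p = 0.678 in edgeR) and the EE value -0.09 (adjusted p = 0.436 in edgeR). Replicate 2 was the highest mouse in each control group, and leaving it out moved the values: the SC value was -0.01 and the averaged value -0.09 (adjusted p = 0.266 in edgeR) without control SC replicate 2, and the EE value was -0.09 without control EE replicate 2. The SC value was -0.06 without CBP-ifKO SC replicate 1. Nrxn3 per length stood at 1.24 ± 0.188 times Nrxn2 in control SC, 1.34 ± 0.118 in CBP-ifKO SC, 1.28 ± 0.105 in control EE and 1.32 ± 0.115 in CBP-ifKO EE mice, and these ranges overlapped.

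The 3 neuroligins showed no genotype difference that passed the test. Nlgn2, the neuroligin of inhibitory synapses, was at 266, 232 and 245 CPM in control SC, 263, 245 and 246 in CBP-ifKO SC, 249, 243 and 248 in control EE and 237, 262 and 239 in CBP-ifKO EE mice. The ranges of the genotypes overlapped in each housing, and the averaged log2 fold change of 0.01 had the narrowest interval of any uncalled member, from -0.08 to 0.10. Nlgn1, of excitatory synapses, was at 85.6, 97.4 and 90.4 CPM in control SC, 83.7, 89.6 and 96.5 in CBP-ifKO SC, 90.9, 111 and 85.8 in control EE and 88.9, 88.9 and 85.6 in CBP-ifKO EE mice. Its averaged log2 fold change was -0.07, with an interval from -0.20 to 0.05. Nlgn3, which occurs at both kinds of synapse, was at 93.8, 72.4 and 83.4 CPM in control SC, 82.0, 81.9 and 78.0 in CBP-ifKO SC, 85.7, 77.2 and 73.5 in control EE and 77.3, 82.0 and 79.7 in CBP-ifKO EE mice. Its CBP-ifKO values lay within the range of the controls, and the averaged log2 fold change was -0.02 (interval -0.14 to 0.11). In Nlgn3, 41.2% of the exonic bases also belong to the predicted gene Gm21986 on the same strand, which had 16–54 counts per library against 1919–3076 for Nlgn3. How reads in the shared bases were assigned is not given in the sources used here. If they were left out, the level of Nlgn3 per length, its place in the order and its ratio to Nlgn2 would be too low. The ratio of Nlgn1 to Nlgn2 per length stayed between 0.154 and 0.168 in the means of the 4 groups and that of Nlgn3 to Nlgn2 between 0.199 and 0.209.

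Among the other LRRTM genes, which also encode postsynaptic binding partners of presynaptic proteins, none passed the test. Lrrtm2 was at 70.3, 84.9 and 72.4 CPM in control SC, 71.7, 71.5 and 75.7 in CBP-ifKO SC, 66.0, 86.3 and 69.0 in control EE and 73.5, 71.7 and 67.8 in CBP-ifKO EE mice. As for Nrxn3 and Nlgn1, replicate 2 was the highest mouse of each control group. The averaged log2 fold change of Lrrtm2 was -0.06 (interval -0.19 to 0.08). Lrrtm3, the least expressed in CPM, ranged from 20.1 to 26.0 CPM over the 12 mice, with an averaged value of -0.04 (interval -0.18 to 0.10). Lrrtm4, which is known for high expression in dentate granule cells, was at 35.0, 27.9 and 33.1 CPM in control SC and 34.9, 39.2 and 34.2 in CBP-ifKO SC mice, and at 33.4, 36.3 and 33.1 in control EE and 35.7, 33.0 and 34.6 in CBP-ifKO EE mice. It had the largest positive value of the members in SC, 0.17 on the log2 scale (interval -0.02 to 0.36, adjusted p = 0.309), and 0.02 in EE (interval -0.14 to 0.17); the lowest of its 12 values was control SC replicate 2. The SC value was 0.08 without that mouse and 0.11 without CBP-ifKO SC replicate 2. Per length, Lrrtm1 stood at 2.86 ± 0.523 times Lrrtm2 in control SC and 2.45 ± 0.242 in CBP-ifKO SC mice, and at 2.84 ± 0.420 and 2.52 ± 0.0647 in the EE groups, with overlapping ranges.

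**Figure D2:**
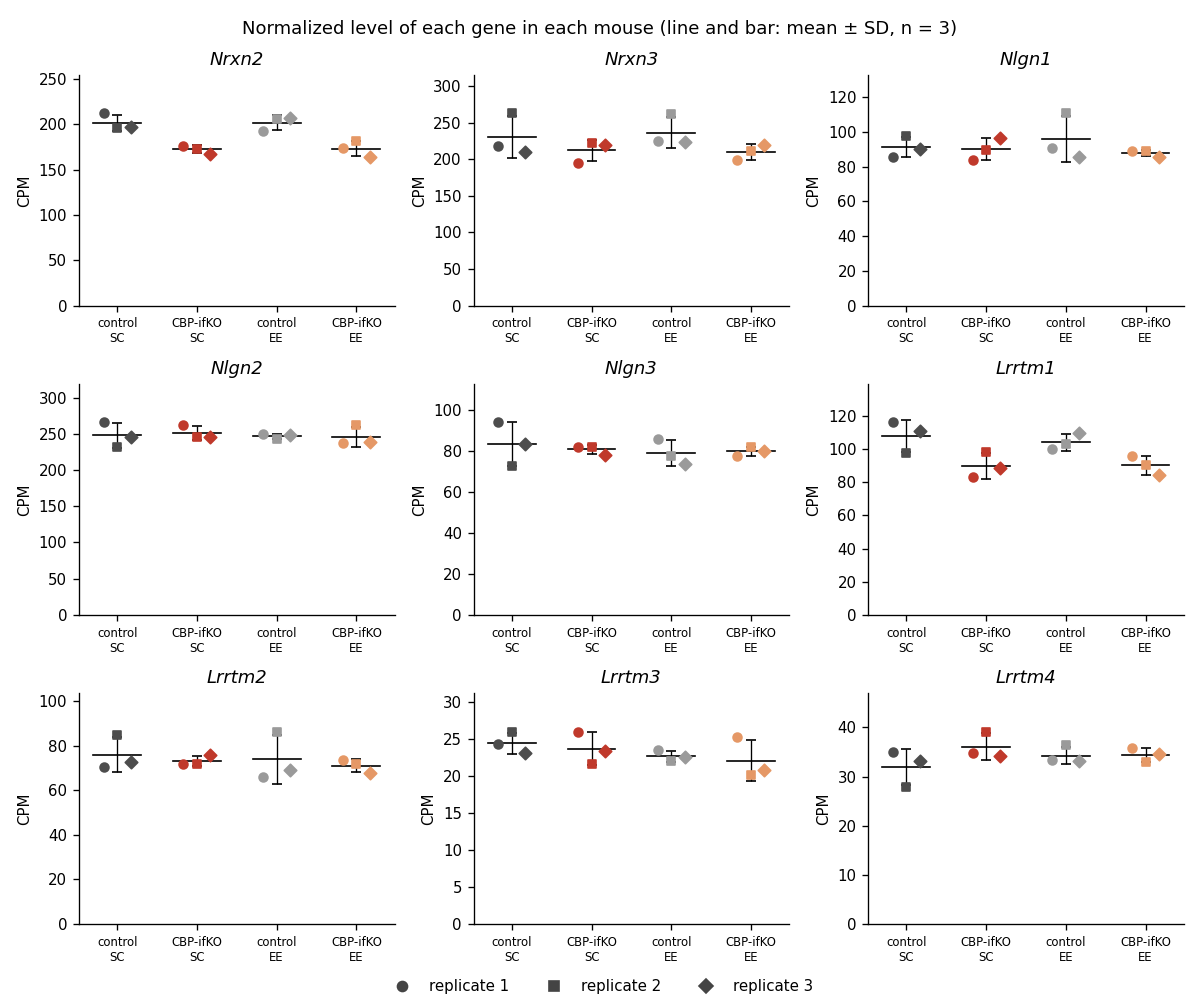
CPM of the 9 genes in each mouse (markers distinguish replicates 1, 2 and 3; line and bar give mean ± SD, n = 3; each axis starts at 0). Nrxn2 is the gene whose CBP-ifKO values all lie below all control values, Lrrtm1 shows this in EE with 1 overlapping pair in SC, and replicate 2 of both control groups is the highest mouse for Nrxn3, Nlgn1 and Lrrtm2.

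Over the 9 members, the median log2 fold change averaged over housing was -0.06 beside 0.00 over all 18251 genes, and 2 of the 9 values were positive, whereas with library totals without TMM the median was 0.01 beside 0.07 over all genes and 5 of the 9 were positive. Leaving out TMM raised both medians by about the same amount: the members' median minus that of all genes was -0.06 under either scaling. The median size of the change regardless of direction was 0.07 for the members and 0.12 for all genes. The coefficient of variation (SD over mean) was larger in controls than in CBP-ifKOs for 7 of 9 members in SC and for 5 of 9 in EE, among them Nrxn3, Nlgn3, Lrrtm2 and Lrrtm4 in both housings. For Nlgn3 it was 12.9% in control SC and 2.83% in CBP-ifKO SC mice, for Lrrtm2 it was 10.4% and 3.21%, and for Nrxn3 12.5% and 6.95%. In the EE groups it was 7.97% and 2.98% for Nlgn3, 14.8% and 4.12% for Lrrtm2, and 9.17% and 5.07% for Nrxn3. Lrrtm3 had the opposite order in both housings, with 5.81% in controls and 9.31% in CBP-ifKOs in SC and 3.21% and 12.7% in EE. For the remaining members the order differed between the housings. These spreads rest on 3 mice each and their difference was not tested. The share of all genes with the larger spread in controls was not computed, so nothing about the family is read from these counts. Replicate 2 of control SC was the highest mouse of its group for Nrxn3 and Lrrtm2 and the lowest for Nlgn3 and Lrrtm4. Replicate 2 of control EE was the highest of its group for Nrxn3, Lrrtm2 and Lrrtm4.

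**Figure D3:**
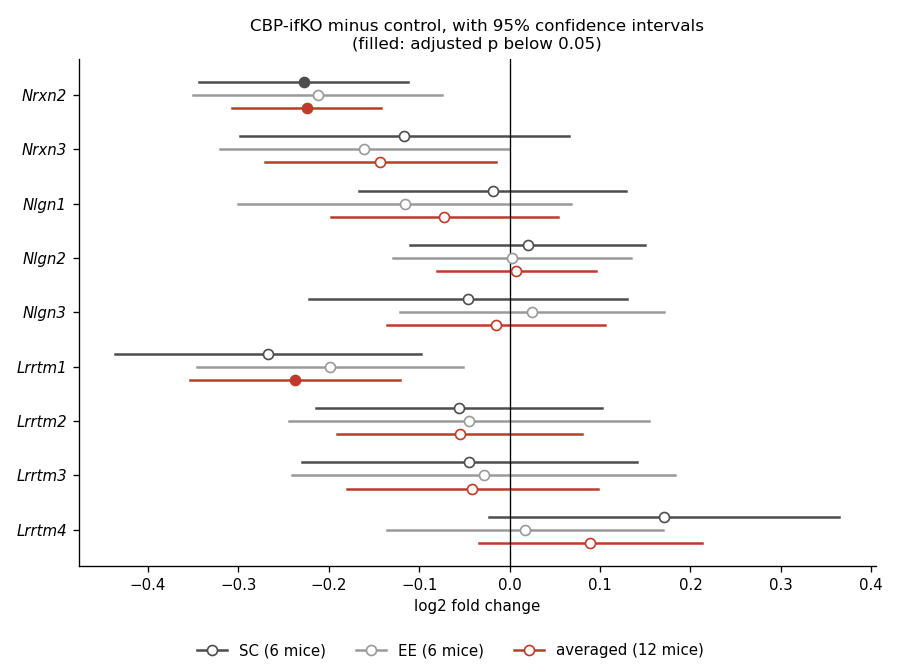
Log2 fold change between CBP-ifKOs and controls with its 95% confidence interval, not adjusted for the number of genes, in SC (6 mice), in EE (6 mice) and averaged over housing (12 mice). Filled points passed an adjusted p of 0.05, which are Nrxn2 in SC and averaged, and Lrrtm1 averaged.

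General markers of neurons moved with Nrxn2 and Lrrtm1. All 5 of these markers (Rbfox3, Snap25, Syt1, Stmn2 and Tubb3) were lower in CBP-ifKOs averaged over housing, with a median log2 fold change of -0.24 (4 of 5 and -0.18 with library totals without TMM), and their summed level was 5158–5461 CPM in control SC against 4572–4662 in CBP-ifKO SC mice and 5206–5453 against 4486–4745 in the EE groups. None was at 0 in any library. Against the mean log2 level of these 5 genes, Nrxn2 stood at -1.62 ± 0.0117 in control SC and -1.61 ± 0.0123 in CBP-ifKO SC mice, and at -1.65 ± 0.109 and -1.60 ± 0.0799 in the EE groups. Lrrtm1 stood at -2.52 ± 0.0867 and -2.56 ± 0.128 in SC and at -2.60 ± 0.0845 and -2.54 ± 0.132 in EE. Relative to general neuronal transcripts both members were thus within the spread between mice. Markers of excitatory neurons (Slc17a7, Camk2a, Neurod6 and Neurod2) had a median of -0.02 and 1 of 4 fell. Without TMM the median was 0.05, 0 fell and 1 rose. Camk2a shares its promoter with the Cre transgene that only CBP-ifKOs carry, and the paper reports a changed gene dose over the regions of that construct. Whether this entered the Camk2a counts, and so the mean of the 4 markers, was not tested. Against the mean log2 level of these 4 genes, Nrxn2 stood at -1.59 ± 0.0543 in control SC and -1.83 ± 0.0484 in CBP-ifKO SC mice, and at -1.69 ± 0.0473 and -1.87 ± 0.125 in the EE groups. The SC ranges lay apart, whereas in EE the lowest control and the highest CBP-ifKO were both at -1.74, so that the EE groups met without a gap. Lrrtm1 stood at -2.49 ± 0.0444 and -2.78 ± 0.0865 in SC, without overlap, and at -2.64 ± 0.0478 and -2.81 ± 0.192 in EE, where the ranges overlapped and the difference of -0.17 lay within the spread between mice.

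Some markers of other cells also passed the test, to be read beside 10.3% of all genes that fell and 6.64% that rose, and lists of 3–6 genes give coarse shares. Averaged over housing, 4 of 5 pyramidal cell markers fell (median -0.27), 2 of 4 dentate granule cell markers (median -0.17) and 3 of 3 oligodendrocyte precursor markers (median -0.33). Of the microglia markers 2 of 5 fell (median -0.16), of the astrocyte markers 2 of 6 (median -0.07) and of the endothelial markers 1 of 4 (median -0.17). Of the 6 interneuron markers 1 fell and 1 rose (median -0.08), and 0 of 5 oligodendrocyte markers passed (median 0.00). Markers of glutamatergic neurons outside the hippocampus went the other way, with 2 of 4 higher in CBP-ifKOs (median 0.14). The housings differed in some of these medians, with no test of the difference: the dentate granule cell median was -0.03 in SC (1 of 4 fell) and -0.31 in EE (2 of 4 fell), and that of the glutamatergic neurons outside the hippocampus was 0.04 and 0.24 (0 of 4 passed in either). Of the choroid plexus markers, which stood apart in control EE replicate 1, 1 of 4 tested fell. With library totals without TMM, 2 of 5 pyramidal cell markers and 0 of the microglia and astrocyte markers fell. The part of these marker changes in the values of the members was not tested.

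To ask whether enrichment changed these genes, EE was compared with SC within each genotype. No member passed the test for housing: 0 of 9 passed in controls, where 0 of 18251 genes passed (0%), and 0 of 9 in CBP-ifKOs, where 0.0110% of genes did. Averaged over genotype 0 of 9 passed, beside 0.164% of genes. No member had an unadjusted p below 0.05 in any of these tests in edgeR, against 4.21% of genes in controls, 8.59% in CBP-ifKOs and 9.44% averaged, and DESeq2 also called 0 members. In each genotype the SC and EE mice overlapped for all 9 members, whereas 9.11% of genes did not overlap in controls and 15.9% in CBP-ifKOs.

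For Nrxn2, which was lower in CBP-ifKOs, the log2 fold change with EE was 0.00 in controls (95% confidence interval -0.12 to 0.12) and 0.01 in CBP-ifKOs (interval -0.11 to 0.12). For Lrrtm1 it was -0.05 (interval -0.22 to 0.11) and 0.01 (interval -0.16 to 0.17). Nrxn2 in CBP-ifKO EE mice, at 165–181 CPM, thus lay below Nrxn2 in control SC mice, at 196–212 CPM. Nlgn2 was at -0.01 and -0.03, and the intervals reached no further than -0.16 and 0.12. The values farthest from 0 were those of Lrrtm3, at -0.11 in controls and -0.10 in CBP-ifKOs (averaged -0.10, interval -0.24 to 0.03), and Lrrtm4, at 0.10 (interval -0.08 to 0.27) and -0.07 (interval -0.24 to 0.11). The values of Nrxn3, Nlgn1, Nlgn3 and Lrrtm2 lay between -0.08 and 0.07 in both genotypes.

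The difference between the EE effects in the 2 genotypes was tested directly as an interaction. It passed for 0 of 9 members and for 0 of 18251 genes (0%) in edgeR, where 3.15% of genes and 0 members were below an unadjusted p of 0.05, and for 0 genes in DESeq2. The member with the smallest p was Lrrtm4, with a difference of -0.16 on the log2 scale (SE 0.116, interval -0.41 to 0.08, unadjusted p = 0.178 in edgeR). The interval was -0.16 to 0.17 for Nrxn2 and -0.17 to 0.29 for Lrrtm1.

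**Figure D4:**
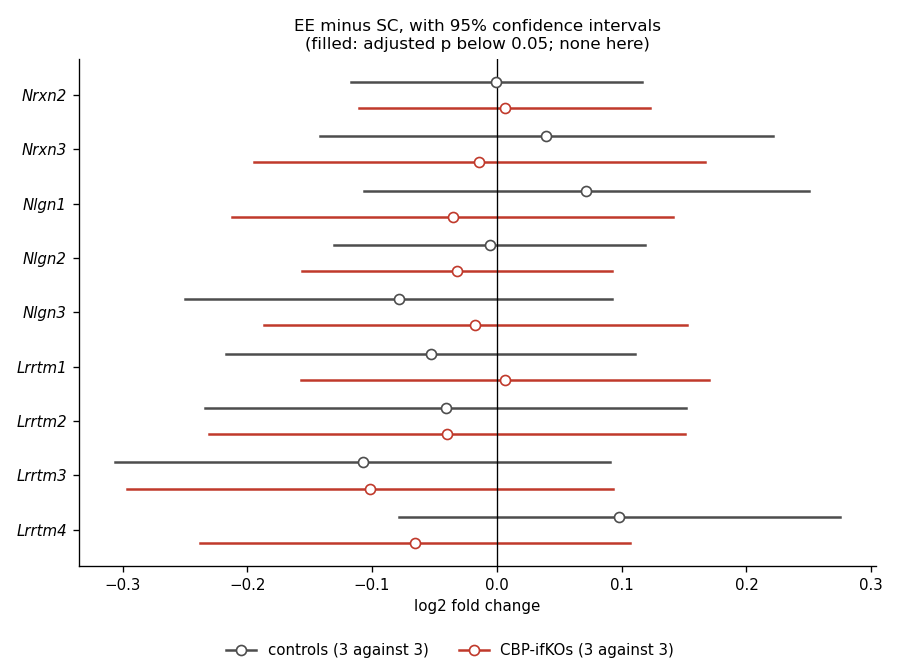
Log2 fold change between EE and SC with its 95% confidence interval, not adjusted for the number of genes, within controls and within CBP-ifKOs (3 mice against 3 each, fitted over all 12 mice). All 18 intervals include 0 and no value passed the test.

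The genes that work with these proteins were read from lists of known partners. Of the other partners of neurexins and neuroligins, 6 of 21 fell in CBP-ifKOs averaged over housing and 0 rose, with a list median of -0.04 beside 0.00 over all genes; of all genes 10.3% fell and 6.64% rose. With library totals without TMM 4 fell and 2 rose and the list median was 0.02, beside 6.99% of all genes that fell and 16.1% that rose. These shares of all genes are the background of every list below. C1ql2, a secreted synaptic organizer of dentate granule cells that is also 1 of the 4 markers of those cells used here, had the largest change at -1.76 on the log2 scale (SE 0.0973). Mdga1, which binds neuroligins and keeps them from neurexins, fell by 0.67 (SE 0.0559), Clstn2, a calsyntenin that binds neurexins, by 0.31 and Grid1, a delta glutamate receptor bridged to neurexins by cerebellins, by 0.30. Mdga1 was also the only gene of all partner lists that passed in the EE comparison averaged over genotype, where it was lower in EE by 0.30 (log2 value -0.30, adjusted p = 0.0453 in edgeR).

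The largest share of changed genes among the partner lists was in the postsynaptic scaffold. There 13 of 21 tested genes fell and 0 rose, with a median log2 fold change of -0.20, beside 10.3% of all genes that fell; without TMM 8 fell and 2 rose (median -0.13). Dlg4, the gene of PSD-95, to which neuroligins bind, fell by 0.35 (SE 0.0342), Shank3 by 0.38, Dlgap4 by 0.33 and Iqsec3 by 0.23. Gphn, the gene of the inhibitory scaffold protein gephyrin, was at -0.10 (adjusted p = 0.0664 in edgeR), and is named here after its value was seen. In the presynaptic scaffold, which links neurexins to release sites, 5 of 17 genes fell and 1 rose (2 and 1 without TMM; median -0.09), among them Apba2, a gene of the Mint family, at -0.35, Ppfia2, the gene of a liprin, at -0.21, Rims1 at -0.18 and Lin7b at -0.27.

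Adhesion genes outside the neurexin system also included genes that fell. Of the LAR-type phosphatases and their ligands, a parallel set of presynaptic receptors and postsynaptic partners, 5 of 17 fell and 0 rose (1 and 0 without TMM, where Ptprs alone passed, near the 6.99% of all genes; median -0.11), with Ptprs at -0.20, Lrfn5 at -0.13, Slitrk4 at -0.22 and Slitrk2 at -0.21. Of the remaining synaptic adhesion genes 7 of 24 fell and 0 rose (4 and 1 without TMM; median -0.12), among them Efnb3, an ephrin, at -0.46, Ntng2, a netrin-G, at -0.41, Ephb2, an ephrin receptor, at -0.26 and Cadm3, a member of the SynCAM family, at -0.21. Among the splicing factors that act on neurexin and neuroligin transcripts 5 of 11 fell and 1 rose (2 and 1 without TMM; median -0.08). Rbfox3, which is also 1 of the neuron markers above, was at -0.40, Khdrbs3 at -0.18 and Nova2 at -0.17, whereas Nova1 was higher by 0.26. Among the proteases that release the extracellular parts of these proteins 0 of 8 fell and 1 rose (2 without TMM and 0 without the filter on low counts), Ncstn, a subunit of gamma-secretase, at 0.14. None of the 3 alpha-catenin genes passed; Ctnna1 was at -0.11 and Ctnna3 had 8–32 counts per library.

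Within 1 housing fewer genes of these lists passed. The postsynaptic scaffold had 6 of 21 genes lower in SC and 7 of 21 in EE, beside 5.52% and 4.57% of all genes that passed in either direction. The other partners had 4 and 2 of 21 lower, the remaining adhesion genes 4 and 3 of 24, the presynaptic scaffold 1 and 1 of 17 and the LAR-type list 1 and 0 of 17, the last pair of lists near or below these shares. Of the 11 splicing factors 2 fell and 1 rose in SC and 1 fell and 1 rose in EE, and 0 of 8 proteases passed in either housing.

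**Figure D5:**
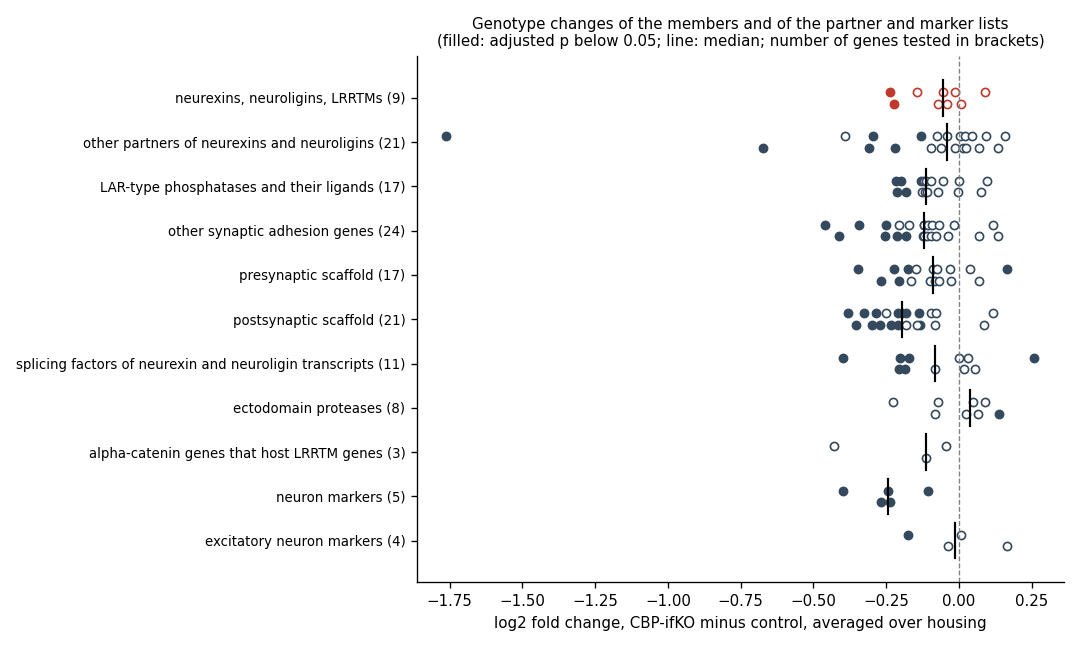
Log2 fold change between CBP-ifKOs and controls, averaged over housing, of each gene of the 9 members and of the lists of partners and neuron markers (filled points passed an adjusted p of 0.05, black lines are medians). The postsynaptic scaffold (median -0.20) and the general neuron markers (median -0.24) lie lower than the members (median -0.06).

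The genes whose levels over the 12 mice were most like those of the 2 called members were found by the root mean square (RMS) difference of mean-centred log2 CPM. For Nrxn2, whose own RMS deviation was 0.122, these were Cadm3 (RMS difference 0.0313), Agap2 (0.0408) and Fbxo31 (0.0409), beside a median of 0.203 over the 18251 genes. For Lrrtm1, with its own RMS deviation of 0.148, they were Arpc5 (0.0547), Snd1 (0.0570) and Irf2bpl (0.0601), beside a median of 0.221. The measure is a description over 12 mice of 4 groups and includes the genotype difference that these genes share.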

How the data were processed

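The authors trimmed the reads with Trim Galore 0.6.4 (quality reports by FastQC 0.11.8), mapped them to mm10 with STAR 2.6.1, discarded alignments of low mapping quality and used Rsubread for counting over the exons of Ensembl genes. The deposited table gives counts of each gene in the 12 mice without normalization, and it labels the runs of a mouse as merged. In the CBP-ifKO libraries 0 of 148570 nonzero counts were odd, so they do not read as a plain sum of 2 different runs. The sources used here do not say how they were formed. How reads in exons shared by overlapping genes were assigned is not given in the sources used here.

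Counts as deposited were tested with edgeR 4.0.16 (filterByExpr, TMM, quasi-likelihood F test, Benjamini-Hochberg adjustment over all genes tested, threshold 0.05, no fold threshold). The genotype comparison within a housing used its 6 mice; the other comparisons used all 12 with 1 coefficient per group. Groups came from the sample labels. Confidence intervals are at 95%. CPM are counts divided by the library total times its TMM factor; a floor of 3 counts corresponds to 0.0801–0.112 CPM and covers counting error only. Positions and overlaps come from the GENCODE annotation of GRCm38, and 55144 of 55471 identifiers had a symbol. Alternatives were DESeq2 1.42.0, DESeq2 size factors in edgeR, no filter or a filter of at least 1 CPM in at least 3 mice, a replicate block, CBP-ifKO counts divided by 2, another set of mice in the fit, leaving out each mouse, and, added after seeing the data, library totals without TMM.

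The members and all lists were chosen with earlier results of these data known. Named are the 9 members, Crebbp, up to 4 genes of each partner list that passed in the genotype comparisons (smallest p averaged over housing), the 3 alpha-catenin genes and, for the 2 members with the smallest p, the 3 genes with the smallest RMS difference (log2 CPM, prior count 2). Of the listed genes, Insyn2a had no row under that symbol, and 2 are not reported here and were left out of their lists. Promoters come from RefSeq. The scripts were tested on simulated counts: of 200 genes given a log2 change of 0.25, 40.5% were recovered for genotype in SC (17456 genes) and 84.5% for genotype averaged over housing (17956 genes).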

Additional observations from a re-analysis of the deposited data

How the results depend on the processing

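Nrxn2 and Lrrtm1 averaged over housing kept their direction and passed the threshold under all 7 other settings and all 12 fits without a mouse. Over these settings the adjusted p of Lrrtm1 reached 0.0304 and that of Nrxn2 0.00590, both with library totals without TMM. In SC the number of members past the threshold was 1, with 2 in DESeq2, 2 without the filter on low counts, 0 with library totals without TMM, and 0–2 without a mouse. In EE it was 0, with 1 in DESeq2, 2 without the filter, 1 with all 12 mice in the fit and 0–0 without a mouse. In the other comparisons it was 0 for every EE test and the interaction under every setting, and 2 or 3 averaged over housing, where Nrxn3 also passed without the filter (log2 -0.16, adjusted p = 0.00909) and with the replicate block (log2 -0.14, adjusted p = 0.0471). No call changed sign. Of the 477 refitted values of single members outside the fits without a mouse, 24 crossed 0, none of them called and none past 0.05 in size; of the 540 in the fits without a mouse, 90 crossed 0, none of them a call, and reached up to 0.10 in size.

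Over all genes, the count past the threshold for genotype in SC was 968, with 1512 without the filter and 399–1908 without a mouse (highest without control SC replicate 2). For genotype in EE it was 805, with 1296 in DESeq2, 1677 without the filter, 1293 with all 12 mice and 285–1016 without a mouse. Averaged over housing it was 3082, and 2459–3294 without a mouse. For EE in controls it was 0, with 15 in DESeq2, 145 without the filter, 1 in the fit of 6 mice and 0–5 without a mouse. For EE in CBP-ifKOs it was 2, with 54 in DESeq2, 247 without the filter, 17 with the replicate block, 0 with halved counts, 21 in the fit of 6 mice and 0–0 without a mouse. The interaction gave 0, with 110 without the filter and 0–0 without a mouse. EE averaged over genotype gave 30, with 158 in DESeq2, 334 without the filter, 48 with the replicate block and 7–42 without a mouse. The cause of these differences was not tested.

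The labels do not say that a replicate number marks a shared litter or day. Deviations from the group means were correlated between same-numbered mice of 2 groups. These correlations were all above 0 between the control housings (0.0645 to 0.42, the highest for replicate 2) and between the EE genotypes (0.0664 to 0.159). Their means there were 0.238 and 0.127, beside -0.119 and -0.0632 for mice of different numbers. They had both signs between the SC genotypes (-0.109 to 0.156, mean 0.0548) and between the CBP-ifKO housings (-0.116 to 0.123, mean -0.0258). Whether a shared factor lies behind the replicate numbers was not tested. The replicate block gave 1041 genes for genotype in SC, 1089 in EE, 3374 averaged and 0 for EE in controls and the interaction. With 3 mice per group, changes near 0.25 on the log2 scale are at the limit of these tests: in the simulation 41% were recovered for EE in controls and 11.5% for the interaction (17956 genes each).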
